A study of Mus musculus with 24 samples.

Results

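Tspan8, Nr5a2, Rxfp2, Ostn, AI593442, Trank1 and Agt were examined across the mouse dental mesenchyme as the genes with the strongest excess in its lingual part. The 7 genes, of 56748 counted, were chosen by a large lingual over buccal difference in their levels in the libraries of the divided mesenchyme, so their lingual excess is what chose them and is given below as a description without a test. No numerical limit stood behind the choice, and they are not the 7 genes with the highest differences. The name fitted 5 of them in every pair of parts, whereas AI593442 had no lingual excess at the cap stage or after culture and Agt was at or near the detection floor in every cap stage library before culture.

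The dental mesenchyme came from first molar tooth germs of the mandible of ICR mouse embryos, taken at the cap stage (E13) or at the bell stage (E15). It was sequenced undivided (Cap-W, Bell-W), as the lingual part (Cap-L, Bell-L) and the buccal part (Cap-B, Bell-B) separated with a fine needle, and as cap stage parts (Cap-L+2D, Cap-B+2D) kept in vitro for 2 days. The labels speak of culturing parts of tooth germs, so epithelium may have been present in culture, and whether the mesenchyme was isolated before or after it is not certain. No allele or drug was introduced, all germs were treated with dispase II to remove epithelium, and each of the 8 groups had 3 libraries. Whether the 3 libraries of a group came from separate animals is not stated in the labels, so the p-values measure the spread between libraries, which may be technical.

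Dental mesenchyme is largely derived from the neural crest and exchanges signals with the dental epithelium as the tooth germ passes from the cap to the bell stage. Its lingual side faces the tongue and its buccal side the cheek. Among the 7 genes, Nr5a2 encodes an orphan nuclear receptor that binds DNA as a monomer, Tspan8 a tetraspanin of the cell surface, and Rxfp2 the receptor for the relaxin family hormone Insl3. Ostn encodes osteocrin, a small secreted protein that binds the natriuretic peptide clearance receptor Npr3, and Agt encodes angiotensinogen, the secreted precursor of the angiotensins. Trank1 encodes a large protein with tetratricopeptide and ankyrin repeats, and AI593442 is a protein-coding gene with little described about it.

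Between 20581720 and 39266497 read pairs were counted on genes per library, and 3 counts, taken as the floor, equalled 0.0764 to 0.146 CPM (counts scaled to 1000000 per library). Levels are given as CPM after TMM normalization. All 11 markers of dental mesenchyme were above the floor in every library, with summed levels between 2386 and 4298 CPM. Markers of other cells were also present, and their sums differed between the parts. The 8 muscle markers summed to 23.8 to 24.5 CPM in Cap-L and 265 to 282 CPM in Cap-B, and to 332 to 356 CPM in Cap-L+2D and 4315 to 4465 CPM in Cap-B+2D. The 6 erythroid markers summed to between 1669 and 5265 CPM in the uncultured libraries and to between 25.6 and 32.3 CPM after culture. Bell-W replicate 3 stood apart from the other Bell-W libraries, with 2534 CPM over the 10 epithelium markers against 664 and 606 CPM, and 134 CPM over the 7 markers of glia and neurons against 29.9 and 29.5 CPM.

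**Figure D1:**
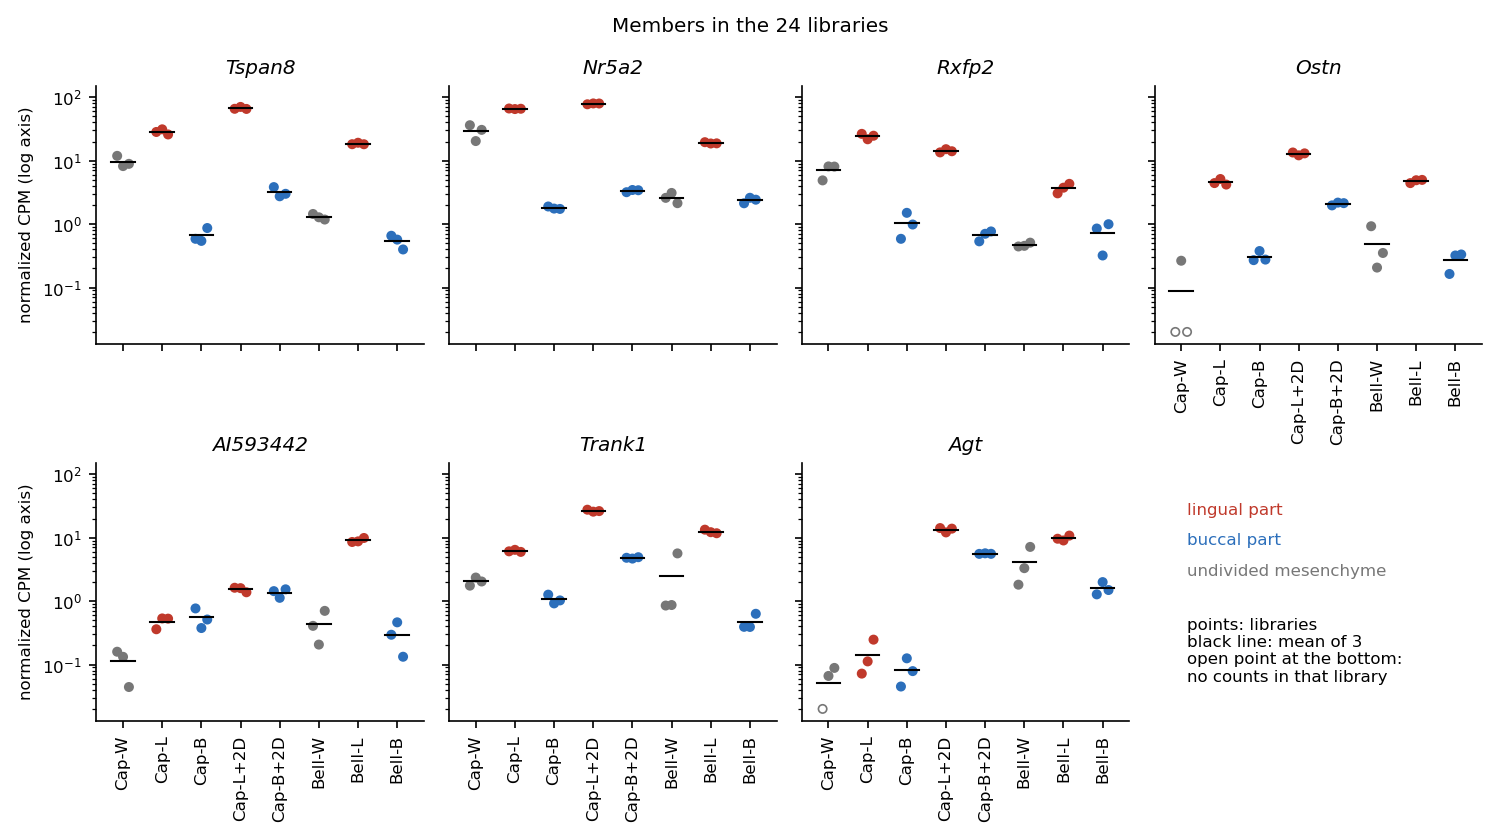
Normalized CPM (log axis) of each of the 7 genes in the 24 libraries, by group. Points are libraries, black lines are means of 3, and open points at the bottom are libraries without a count. Lingual libraries (red) lie above buccal ones (blue) at every stage for Tspan8, Nr5a2, Rxfp2, Ostn and Trank1, while AI593442 is highest in Bell-L and Agt is near the floor in all cap libraries before culture.

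In the comparison that chose them, lingual and buccal libraries did not overlap for 5 of the 7 genes at the cap stage, for 7 at the bell stage and for 6 after culture. Of all genes tested, 7.1% were called higher in Cap-L and 10.4% in Cap-B, 6.88% in Bell-L and 6% in Bell-B, and 12.5% in Cap-L+2D and 12.5% in Cap-B+2D, at an adjusted p under 0.05 and a log2 fold change beyond 0.5 in edgeR's quasi-likelihood test. These are shares of calls, a different measure, and the share of all genes without overlap was not counted. Nothing is read from the members' counts against these shares, also because this contrast selected the members. By lingual over buccal fold change, Tspan8 ranked 2 of 20653 genes at the cap stage, Nr5a2 7, Rxfp2 12, Ostn 25, Trank1 90 and AI593442 15703, and Agt had too few counts to be tested. At the bell stage Tspan8 ranked 6 of 21181, AI593442 8, Trank1 9, Ostn 14, Nr5a2 36, Agt 45 and Rxfp2 64. After culture Nr5a2 ranked 42 of 21195, Rxfp2 49, Tspan8 51, Ostn 223, Trank1 254, Agt 859 and AI593442 6713. The log2 fold change of lingual over buccal was then 4.57 for Nr5a2, 4.43 for Rxfp2 and 4.38 for Tspan8. It was 2.63 for Ostn, 2.47 for Trank1, 1.27 for Agt and 0.15 for AI593442.

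**Figure D2:**
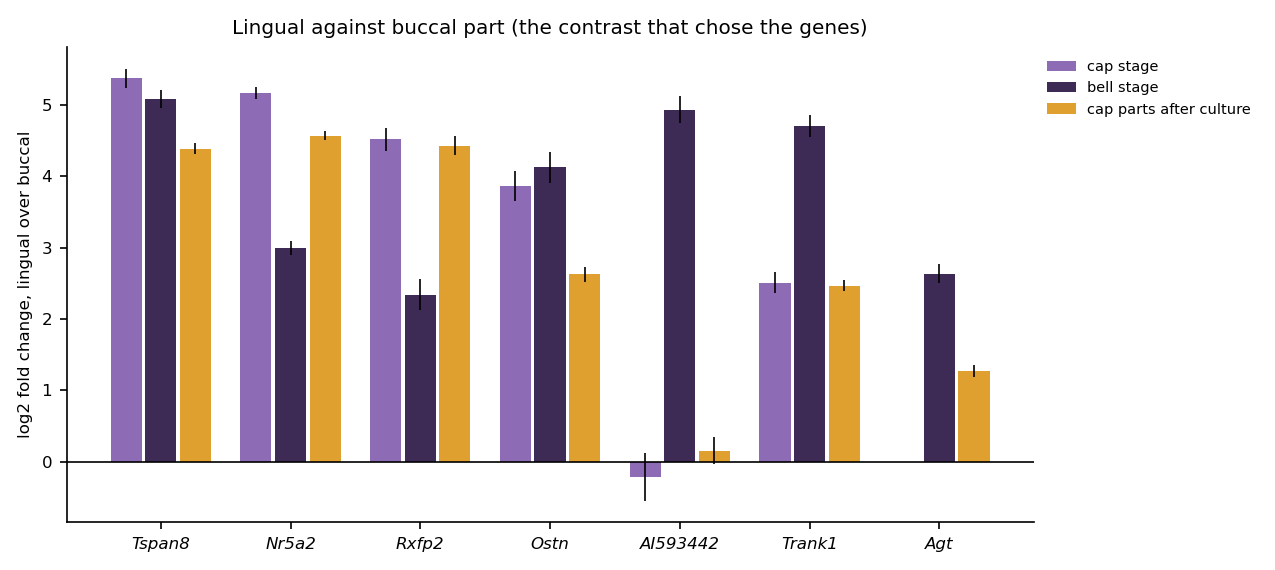
Log2 fold change of the lingual over the buccal part in cap, bell and cultured cap libraries, with standard errors, for the 7 genes. There is no cap stage bar for Agt, which did not pass the filter, and the AI593442 bars at the cap stage (-0.21) and after culture (0.15) lie near 0 beside 4.93 at the bell stage.

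Counted per transcript length and scaled to the same total (TPM), the highest group mean was 88.5 TPM for Tspan8 in Cap-L+2D. It was 30.0 TPM for Nr5a2, 20.3 TPM for Ostn, 15.9 TPM for Agt and 4.53 TPM for Trank1 in the same group. Rxfp2 was highest in Cap-L with 9.87 TPM, and AI593442 in Bell-L with 3.55 TPM. In bulk samples, fewer cells of a type and less RNA per cell cannot be told apart, and this holds for each difference given here.

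Nr5a2 (ENSMUSG00000026398, GRCm39 chr1:136770309-136888186, minus strand) was measured at the cap stage at 66.3, 65.0 and 65.7 CPM in Cap-L, 1.89, 1.76 and 1.73 CPM in Cap-B, and 36.2, 20.4 and 30.6 CPM in Cap-W. At the bell stage it was 19.5, 18.6 and 18.7 CPM in Bell-L, 2.13, 2.60 and 2.42 CPM in Bell-B, and 2.59, 3.10 and 2.14 CPM in Bell-W. The undivided mesenchyme thus lay between the parts at the cap stage and within the range of the buccal part or just above it at the bell stage. The log2 fold change of lingual over buccal was 5.17 ± 0.08 (SE, n = 3 against 3) in the cap parts and 2.99 ± 0.09 in the bell parts. From cap to bell, Nr5a2 fell by 3.49 ± 0.27 (SE) on the log2 scale in the undivided mesenchyme (adjusted p = 0.000378, edgeR) and by 1.78 ± 0.05 in the lingual part (adjusted p = 8.38e-20, edgeR). In the buccal part the bell libraries were all above the cap libraries, with a log2 fold change of 0.40 ± 0.16 that stayed under the fold limit of 0.5 (adjusted p = 0.0363, edgeR). After culture it was 77.3, 79.7 and 79.5 CPM in Cap-L+2D and 3.18, 3.45 and 3.42 CPM in Cap-B+2D. The lingual change of 0.26 ± 0.04 was under the fold limit (adjusted p = 1.15e-05, edgeR), and the buccal part rose by 0.86 ± 0.15 (adjusted p = 5.23e-06, edgeR).

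Tspan8 (ENSMUSG00000034127, chr10:115652737-115685798, plus strand) was 28.3, 31.1 and 25.9 CPM in Cap-L, 0.586, 0.544 and 0.867 CPM in Cap-B, and 11.9, 8.21 and 8.90 CPM in Cap-W. At the bell stage it was 18.2, 19.1 and 18.1 CPM in Bell-L, 0.655, 0.570 and 0.399 CPM in Bell-B, and 1.44, 1.28 and 1.18 CPM in Bell-W. Cap-W lay between the parts and Bell-W close above the buccal part, with no overlap between any of these groups within a stage. Lingual over buccal, the log2 fold change was 5.37 ± 0.14 (SE) in the cap parts and 5.08 ± 0.13 in the bell parts, from no more than 22 counts in any uncultured buccal library. From cap to bell Tspan8 fell by 2.90 ± 0.25 on the log2 scale in the undivided mesenchyme (adjusted p = 0.000559, edgeR) and by 0.61 ± 0.07 in the lingual part (adjusted p = 2.16e-08, edgeR), and Bell-B and Cap-B overlapped (-0.31 ± 0.31, adjusted p = 0.43). After culture it was 65.6, 70.2 and 65.3 CPM in Cap-L+2D and 3.83, 2.74 and 3.00 CPM in Cap-B+2D, all above the cap libraries of the same part. The rise was 1.23 ± 0.06 in the lingual part (adjusted p = 1.26e-15, edgeR) and 2.22 ± 0.21 in the buccal part (adjusted p = 5.23e-11, edgeR). Tspan8 is also known from epithelia, and the 10 epithelium markers summed to 593 to 666 CPM in Cap-L, 413 to 434 CPM in Cap-B, 996 to 1047 CPM in Bell-L and 691 to 722 CPM in Bell-B. After culture they summed to 462 to 503 CPM in Cap-L+2D and 94.2 to 96.6 CPM in Cap-B+2D. Their sum was thus higher on the lingual side in every pair of parts, as Tspan8 was. It fell in culture in both parts, where Tspan8 rose. From cap to bell it rose in the lingual part, where Tspan8 fell. The part of epithelium in the Tspan8 values was not tested.

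Rxfp2 (ENSMUSG00000053368, chr5:149942140-150005649, plus strand) was 26.4, 21.7 and 24.7 CPM in Cap-L, 0.586, 1.51 and 0.985 CPM in Cap-B, and 4.89, 8.11 and 8.06 CPM in Cap-W. At the bell stage it was 3.05, 3.75 and 4.31 CPM in Bell-L, 0.852, 0.320 and 0.996 CPM in Bell-B, and 0.444, 0.454 and 0.510 CPM in Bell-W. The lingual libraries were the highest at both stages, and Bell-W lay inside the range of the buccal part. Of its exon bases, 5.17% overlap a gene on the opposite strand, and pairs assigned to more than 1 gene were not counted. The lingual over buccal log2 fold change was 4.52 ± 0.16 (SE) in the cap parts and 2.34 ± 0.21 in the bell parts. From cap to bell Rxfp2 fell by 3.89 ± 0.31 on the log2 scale in the undivided mesenchyme (adjusted p = 0.000428, edgeR) and by 2.68 ± 0.10 in the lingual part (adjusted p = 5.81e-17, edgeR), while the buccal change of -0.50 ± 0.32 was not called (adjusted p = 0.196). In culture Rxfp2 fell to 13.5, 15.2 and 14.1 CPM in Cap-L+2D, by 0.77 ± 0.08 on the log2 scale (adjusted p = 9.2e-09, edgeR). In Cap-B+2D it was 0.535, 0.704 and 0.766 CPM, a change of -0.68 ± 0.32 that was not called (adjusted p = 0.0601, edgeR).

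Over the 24 libraries, Pearson's r of log2 CPM was 0.956 between Tspan8 and Nr5a2, 0.949 between Nr5a2 and Rxfp2, and 0.873 between Tspan8 and Rxfp2, over libraries that share 8 groups. Most of these are the lingual and buccal libraries whose difference chose the genes, so a high r between members, or with another gene of lingual excess, is set in part by that choice and is no sign of shared behaviour. For these 3 genes, as those with a lingual excess over 2 on the log2 scale in all pairs of parts that fell between the stages in the undivided mesenchyme, the sequence before the RefSeq start sites is shown, up to the first base of any annotated exon, 5′ to 3′ along the gene. The windows are RefSeq's for GRCm38.p6, and each matched GRCm39 at 1 place, whose coordinates are given. The Tspan8 stretch lies within the gene as counted, after its first base, and the other 153 bases of its window lie in annotated exons. Capitals mark the only match, in these stretches, to the letters searched.

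Tspan8, chr10:115652939-115653035, plus strand: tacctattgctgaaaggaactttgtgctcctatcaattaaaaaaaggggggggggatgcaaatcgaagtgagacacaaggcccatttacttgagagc

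Nr5a2, upstream start, chr1:136888187-136888436, minus strand: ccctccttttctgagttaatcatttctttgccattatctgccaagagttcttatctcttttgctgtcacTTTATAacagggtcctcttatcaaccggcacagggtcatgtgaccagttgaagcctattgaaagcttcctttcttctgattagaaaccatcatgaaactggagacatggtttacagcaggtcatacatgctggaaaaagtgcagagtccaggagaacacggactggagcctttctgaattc

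Nr5a2, downstream start, chr1:136881369-136881618, minus strand: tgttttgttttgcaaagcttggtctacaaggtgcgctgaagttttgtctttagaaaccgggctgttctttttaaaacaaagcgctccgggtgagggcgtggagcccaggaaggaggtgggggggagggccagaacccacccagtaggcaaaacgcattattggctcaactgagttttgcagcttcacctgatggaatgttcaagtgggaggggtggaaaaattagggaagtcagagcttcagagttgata

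Rxfp2, chr5:149941890-149942139, plus strand: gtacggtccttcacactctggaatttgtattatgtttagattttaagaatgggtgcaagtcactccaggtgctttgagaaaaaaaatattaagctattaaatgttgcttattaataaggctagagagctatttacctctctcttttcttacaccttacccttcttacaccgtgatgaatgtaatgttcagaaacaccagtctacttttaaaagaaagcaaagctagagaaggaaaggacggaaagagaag

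The search covered 250 bases before the start on both strands in the 7 windows of 6 members, with Ostn not among them. It used AAGGTCA, the site of NR5A receptors, found in 4.08% of all 32851 windows, and the E-box CATCTG, found in 14.4%. It also used TAATTA, a homeodomain core, found in 4.84%, and TATAAA, the TATA box, found in 12.4%. TATAAA was found on the opposite strand of the upstream Nr5a2 window, from base 181 to base 176 before the start, and in the Agt window from base 30 to base 25 before the start. CATCTG was found in the Agt window from base 188 to base 183 before the start, and the other motifs were found in no member's window. All 250 bases of the Agt window, and all of the Trank1 window, lie in annotated exons, so they lie before the RefSeq start only. The G and C content of the windows ran from 36% in Rxfp2 through 52.4% in Tspan8 to 70.8% in Trank1.

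**Figure D3:**
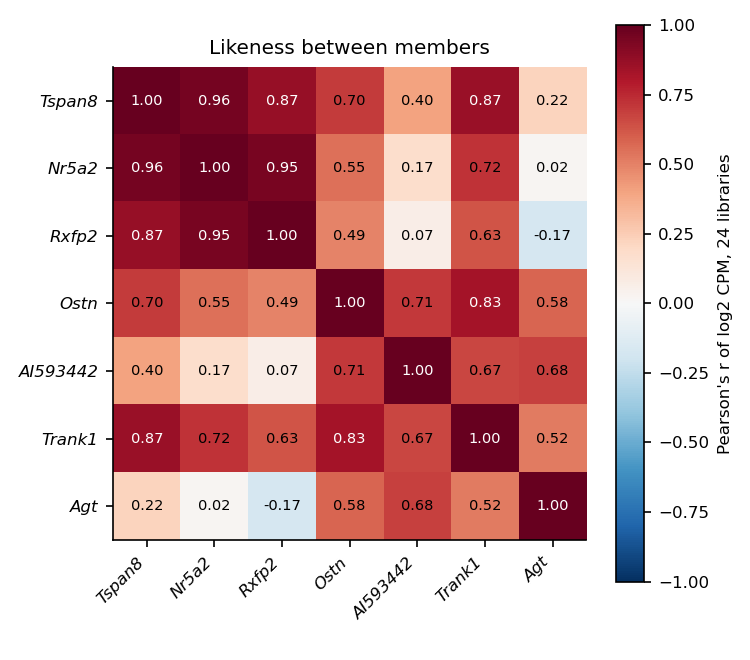
Pearson's r of log2 CPM (prior count of 2) between the 7 genes over the 24 libraries, as a colour scale with the value in each cell. Nr5a2, Tspan8 and Rxfp2 have the highest values with each other, from 0.87 to 0.96, and Agt has values between -0.17 and 0.22 with these 3 genes.

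The genes whose pattern was most like that of each member were taken by Pearson's r over the 24 libraries, among 19768 genes with a mean of at least 1 CPM in 1 group or more. They were Gm46828 (0.971) and Rtl9 (0.934) beside Nr5a2 for Tspan8, Gm18981 (0.984), Rtl9 (0.976) and Gm46828 (0.965) for Nr5a2, and Gm18981 (0.959) and Gucy2f (0.948) beside Nr5a2 for Rxfp2. Gm18981, annotated as a processed pseudogene on chr6, aligned to an Nr5a2 transcript over 1586 of its 1599 bases with 90.3% of the compared bases identical. Of its 1580 words of 20 bases, 257 also occur in Nr5a2 transcripts. How far read pairs of the pseudogene and of Nr5a2 are told apart in these counts was not tested. Gm18981 had a mean of 5.46 CPM in Cap-L and 0.307 CPM in Cap-B. Gm46828, a long noncoding RNA on chr3, shares no word of 20 bases with Tspan8 or Nr5a2, and was 0.829 CPM in Cap-L and 0.0413 CPM in Cap-B, the latter under the floor.

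Ostn (ENSMUSG00000052276, chr16:27126239-27169962) was 4.43, 5.13 and 4.2 CPM in Cap-L and 0.271, 0.376 and 0.276 CPM in Cap-B. In Cap-W it had 0, 8 and 0 counts, the lowest of all groups, although both parts of the same stage had more. At the bell stage it was 4.43, 4.91 and 4.97 CPM in Bell-L, 0.164, 0.320 and 0.332 CPM in Bell-B, and 0.925, 0.207 and 0.351 CPM in Bell-W. The lingual libraries did not overlap with the buccal or undivided ones, and Bell-W overlapped with the buccal part. The log2 fold change of lingual over buccal was 3.86 ± 0.21 (SE) in the cap parts and 4.12 ± 0.21 in the bell parts. Between the stages no change was called in the lingual part (0.07 ± 0.11, adjusted p = 0.647, edgeR) or the buccal part (-0.19 ± 0.41, adjusted p = 0.74), and the gene did not pass the filter in the undivided libraries. In culture Ostn rose to 13.4, 12.1 and 13.0 CPM in Cap-L+2D, by 1.47 ± 0.09 (adjusted p = 4.34e-13, edgeR), and to 1.97, 2.18 and 2.14 CPM in Cap-B+2D, by 2.71 ± 0.26 (adjusted p = 6.29e-11, edgeR). Of its exon bases, 12.9% overlap a gene on the opposite strand.

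Ostn is known from osteoblasts and muscle, and the sums of markers of both differed between the groups. The 6 osteoblast markers summed to 971 to 982 CPM in Cap-L, 445 to 462 CPM in Cap-B and 293 to 400 CPM in Cap-W. They summed to 2351 to 2374 CPM in Cap-L+2D and 577 to 588 CPM in Cap-B+2D, where the muscle markers were highest. The osteoblast sums of the bell stage lay closer together than the Ostn levels, at 727 to 749 CPM in Bell-L, 557 to 560 CPM in Bell-B and 542 to 743 CPM in Bell-W, with 1 of the 5 markers tested called lingual and 1 buccal. The 8 muscle markers summed to 126 to 135 CPM in Bell-L and 1043 to 1070 CPM in Bell-B. Their sum was higher on the buccal side, opposite to Ostn, at both stages and after culture. In culture it rose in both parts, as Ostn did, to 332 to 356 CPM in Cap-L+2D and 4315 to 4465 CPM in Cap-B+2D. From cap to bell it also rose in both parts, where no Ostn change was called. The gene most like Ostn was Alpl (r = 0.938), which encodes tissue-nonspecific alkaline phosphatase and is 1 of the 6 osteoblast markers, followed by Stim1 (0.935) and Clec2g (0.932). The part of these cells in the Ostn values was not tested.

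Trank1 (ENSMUSG00000062296, chr9:111140807-111224843) was 6.08, 6.42 and 5.96 CPM in Cap-L, 1.26, 0.920 and 1.03 CPM in Cap-B, and 1.75, 2.35 and 2.04 CPM in Cap-W. At the bell stage it was 13.4, 12.2 and 11.7 CPM in Bell-L, 0.393, 0.392 and 0.631 CPM in Bell-B, and 0.851, 0.867 and 5.64 CPM in Bell-W. The groups did not overlap within a stage, and Bell-W replicate 3, with 177 counts, stood above the other Bell-W libraries, with 23 and 21. Lingual over buccal, the log2 fold change was 2.50 ± 0.15 (SE) in the cap parts and 4.70 ± 0.15 in the bell parts. From cap to bell Trank1 rose by 1.02 ± 0.08 in the lingual part (adjusted p = 1.06e-10, edgeR) and fell by 1.17 ± 0.27 on the log2 scale in the buccal part (adjusted p = 0.000446, edgeR). In the undivided mesenchyme the change of 0.26 ± 0.72 was not called (adjusted p = 0.845, edgeR), and without Bell-W replicate 3 it was -1.25 and was called (adjusted p = 0.0477). That library also had the high epithelium and glia sums, whose part was not tested. In culture Trank1 rose to 27.6, 25.7 and 26.2 CPM in Cap-L+2D, by 2.09 ± 0.07 (adjusted p = 3.85e-18, edgeR), and to 4.82, 4.68 and 4.92 CPM in Cap-B+2D, by 2.14 ± 0.16 (adjusted p = 1.75e-13, edgeR). Tgfbi (r = 0.942), Prickle1 (0.939) and Lrig1 (0.915) had the patterns most like it.

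AI593442 (ENSMUSG00000078307, chr9:52584342-52591080) was 8.54, 8.73 and 9.88 CPM in Bell-L, 0.295, 0.463 and 0.133 CPM in Bell-B, and 0.407, 0.207 and 0.702 CPM in Bell-W. At the cap stage it was 0.360, 0.533 and 0.529 CPM in Cap-L, 0.767, 0.376 and 0.512 CPM in Cap-B, and 0.159, 0.132 and 0.0443 CPM in Cap-W. Among the uncultured groups Bell-L stood apart, and at the cap stage the lingual and buccal libraries overlapped. The log2 fold change of lingual over buccal was 4.93 ± 0.19 (SE) at the bell stage, -0.21 ± 0.33 at the cap stage and 0.15 ± 0.19 after culture. From cap to bell AI593442 rose by 4.25 ± 0.16 in the lingual part (adjusted p = 4.26e-17, edgeR), and the buccal change of -0.89 ± 0.39 was not called (adjusted p = 0.0614). In the undivided mesenchyme, where it did not pass the filter, it had 8 counts over the 3 Cap-W libraries and 38 over the Bell-W libraries, a ratio of counts per total count of 4.26 (95% exact interval 1.96 to 10.6, counting error only). After culture it was 1.62, 1.6 and 1.38 CPM in Cap-L+2D and 1.44, 1.13 and 1.53 CPM in Cap-B+2D. It rose by 1.65 ± 0.23 in the lingual part (adjusted p = 6.61e-07, edgeR) and by 1.29 ± 0.28 in the buccal part (adjusted p = 0.000159, edgeR), and the cultured groups overlapped. Adamtsl4 (r = 0.858) and Chodl (r = 0.856) were among the genes most like it.

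Agt (ENSMUSG00000031980, chr8:125283273-125296445) had 0, 2 and 2 counts in Cap-W, 2, 4 and 7 in Cap-L and 1, 3 and 2 in Cap-B. These are at or near the floor of 3 counts, and the lingual and buccal libraries overlapped, with a ratio of counts per total count of 1.68 (95% exact interval 0.597 to 5.40, counting error only). At the bell stage it was 9.61, 9.02 and 10.8 CPM in Bell-L, 1.28, 1.99 and 1.5 CPM in Bell-B, and 1.81, 3.30 and 7.14 CPM in Bell-W. The lingual libraries were the highest, and Bell-W overlapped with the buccal part. The log2 fold change of lingual over buccal was 2.64 ± 0.13 (SE) at the bell stage and 1.27 ± 0.09 after culture. Agt was called higher at the bell than at the cap stage in the undivided mesenchyme (adjusted p = 0.00255, edgeR), the lingual part (adjusted p = 7.21e-18, edgeR) and the buccal part (adjusted p = 4.08e-11, edgeR). Since the cap stage counts were so few, the sizes are given as ratios of counts per total count, of 79.1 (95% exact interval 30.6 to 292), 68.4 (39.8 to 129) and 18.7 (8.39 to 51.9). Without Bell-W replicate 3, the library with the high epithelium and glia sums, the undivided ratio was 46.5, and without Cap-L replicate 3 the lingual ratio was 103. After culture it was 14.2, 12.1 and 13.9 CPM in Cap-L+2D and 5.55, 5.66 and 5.56 CPM in Cap-B+2D, with ratios to the uncultured part of 84.6 (49.3 to 159, adjusted p = 1.71e-19, edgeR) and 61.2 (27.9 to 167, adjusted p = 4.72e-19, edgeR).

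The 3 genes most like Agt were Adgre1 (r = 0.963), P2ry6 (0.960) and Cd300lf (0.959), which are known from macrophages, and Adgre1 is 1 of the 6 macrophage markers listed for these samples. All 6 macrophage markers were called higher at the bell than at the cap stage in the undivided mesenchyme and in both parts, and higher after culture in both parts. Their sum ran from 28.6 to 32.8 CPM in Cap-W, from 57.9 to 62.8 CPM in Cap-L and from 57.3 to 65.0 CPM in Cap-B. It ran from 124 to 151 CPM in Bell-W, from 193 to 198 CPM in Bell-L and from 122 to 127 CPM in Bell-B, and from 237 to 249 CPM in Cap-L+2D and 160 to 169 CPM in Cap-B+2D. At the cap stage, where Agt was near the floor, none of the 6 markers was at 0, and the sums of the lingual and buccal parts overlapped as the Agt counts did. The sizes differed. From cap to bell, the log2 fold change of Agt and the median of the 6 markers were 6.08 and 2.44 in the undivided mesenchyme. They were 6.09 and 1.84 in the lingual part and 4.16 and 1.09 in the buccal part, with Agt near the floor at the cap stage. Lingual over buccal, they were 2.64 and 0.70 at the bell stage and 1.27 and 0.55 after culture. The part of macrophages in the Agt values was not tested.

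**Figure D4:**
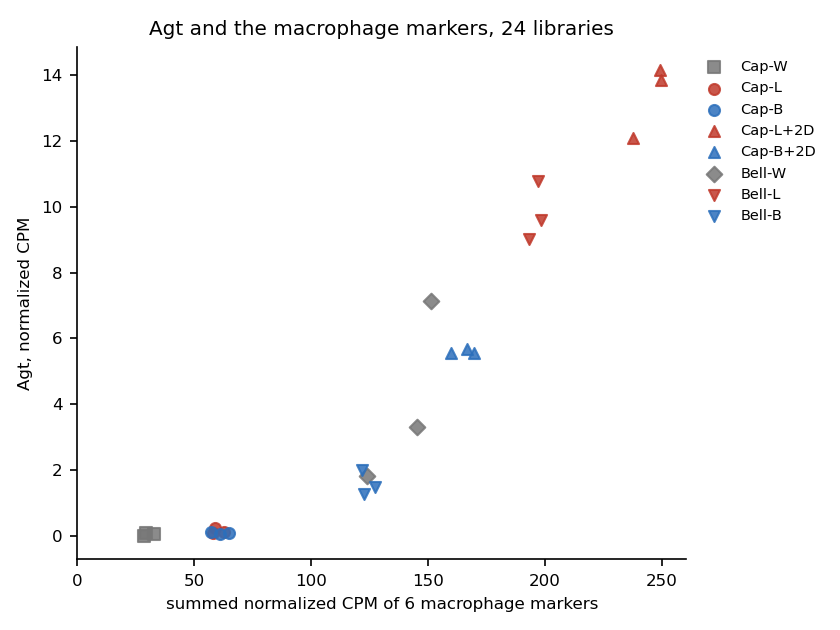
Agt (normalized CPM) against the summed normalized CPM of 6 macrophage markers in the 24 libraries, 1 point per library, coloured by part. The 9 uncultured cap libraries lie at the lower left, and the Bell-L and Cap-L+2D libraries are highest on both axes.

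Counted over the members, the undivided libraries, which did not enter the choice, gave 3 genes lower at the bell stage (Tspan8, Nr5a2 and Rxfp2) and 1 higher (Agt) of the 5 that passed the low-count filter. With all 24 libraries in 1 fit, where the other 2 genes could be tested, 3 were called higher and 3 lower. Of all 20940 genes tested there, 4.21% were called higher in Cap-W and 10.3% in Bell-W. In the lingual part, 3 of the 7 were called higher at the bell stage (AI593442, Trank1 and Agt) and 3 lower (Tspan8, Nr5a2 and Rxfp2), beside 14.2% of all genes called higher in Bell-L and 5.78% in Cap-L. In the buccal part only Agt was called higher and only Trank1 lower, beside 12% of all genes called higher in Bell-B and 6.73% in Cap-B. The libraries of both parts, lingual and buccal, had themselves entered the choice. A gene picked for lingual excess at 1 stage is more likely to read high there in the lingual and low in the buccal part. A low buccal reading at the cap stage also makes a rise after culture more likely. Nothing is therefore read from the members' counts in the parts. After culture 5 of the 7 were called higher in the lingual part and 1 lower, beside 19.6% of all genes called higher in Cap-L+2D and 15.9% in Cap-L. In the buccal part 6 of the 7 were called higher and 0 lower by edgeR and by DESeq2, with an unadjusted edgeR p of 0.041 for Rxfp2 alone among the genes not called, beside 17.9% of all genes called higher in Cap-B+2D and 16.6% in Cap-B. The stage and culture comparisons of a part share its uncultured cap libraries.

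**Figure D5:**
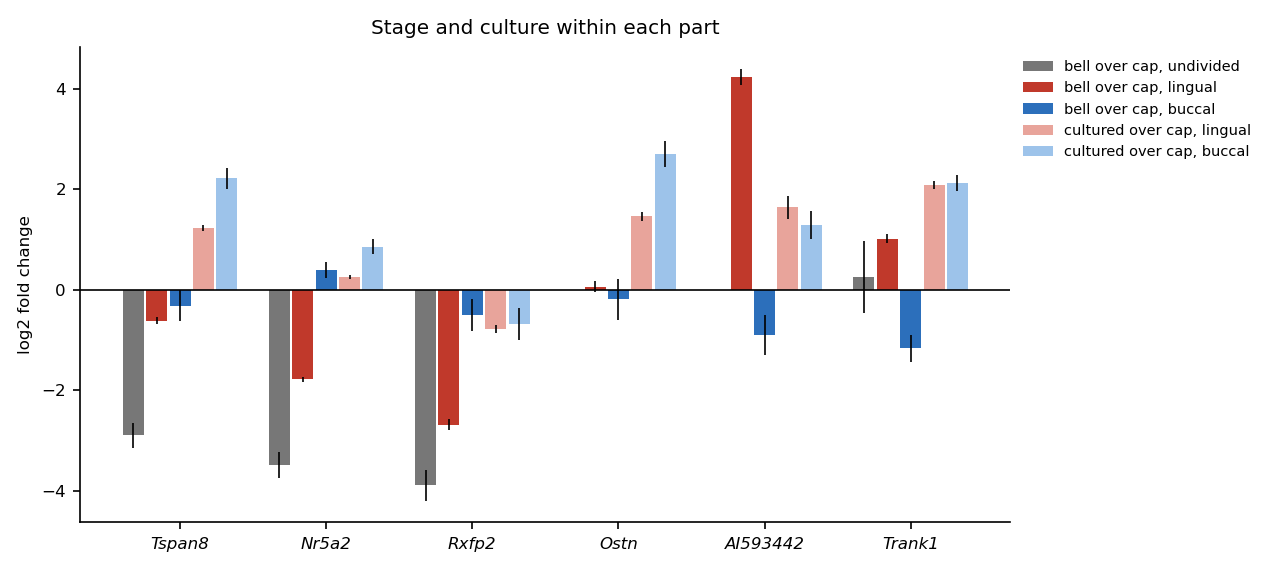
Log2 fold changes with standard errors of 6 of the genes from cap to bell in the undivided mesenchyme and in each part, and from uncultured to cultured in each part. Agt is left out because its cap stage counts were near the floor, and Ostn and AI593442 have no undivided bar because they did not pass the filter there. Tspan8, Nr5a2 and Rxfp2 have negative stage bars in the undivided and lingual libraries, while Tspan8, Ostn, AI593442 and Trank1 have culture bars above 1 in both parts.

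Undivided libraries were set against the parts of their stage. Some marker sums lay outside both parts, so a place between the parts is no share of lingual tissue. The 8 muscle markers summed to 16.3 to 21.3 CPM in Cap-W and 9.71 to 17.6 CPM in Bell-W, below both parts. The 6 endothelium markers summed to 188 to 196 CPM in Cap-W, 450 to 464 CPM in Cap-L and 401 to 418 CPM in Cap-B. Other sums, such as that of the cartilage markers in Cap-W, lay between the parts. Cap-W stood 42.6% of the way from the buccal to the lingual mean for Nr5a2, 32.4% for Tspan8, 25.8% for Rxfp2 and 19.2% for Trank1. It stood below both parts for Ostn, AI593442 and Agt. Bell-W stood 1.35% of the way for Nr5a2, 1.62% for AI593442, 4.24% for Tspan8, 4.94% for Ostn, 16.6% for Trank1 and 30.4% for Agt, and below both parts for Rxfp2. Several Bell-W values rest on 1 library. Without Bell-W replicate 3 the value was 3.24% for Trank1, 11.8% for Agt, 0.115% for AI593442 and 2.78% for Nr5a2. Without Bell-W replicate 2 it was -0.124% for Nr5a2 and 2.94% for AI593442, and without Bell-W replicate 1 it was 0.146% for Ostn, while without replicate 2 Ostn stood at 8.14%. Among other genes called higher in the lingual part with a log2 fold change over 2, the median was 50.2% at the cap stage (158 genes) and 26.8% at the bell stage (93 genes). At the cap stage 69.6% of these lay between the parts, 9.49% below both and 20.9% above both. At the bell stage 77.4% lay between, 19.4% below and 3.23% above. Of the members below both means, AI593442 and Agt had parts that overlapped at the cap stage. The Bell-W libraries of Rxfp2 lay inside the range of the buccal part. Over all other genes tested, 23.6% lay between the parts at the cap stage and 42.8% below both. At the bell stage these shares were 25.6% and 41.1%.

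The direct partners of the members were looked up in lists of their families and pathways, and for these genes the lingual and buccal parts were tested. Calls over all genes tested came to 7.1% lingual and 10.4% buccal at the cap stage, and to 6.88% and 6% at the bell stage. These shares stand beside each list count below, and no list was tested as a set. Of the relaxin family, Insl3, the ligand of Rxfp2, was at most 0.329 CPM in any group mean and did not pass the filter. Rxfp1, the receptor for relaxin, ran opposite to Rxfp2. Its means were 1.51 CPM in Cap-L and 5.63 CPM in Cap-B, 1.77 CPM in Bell-L and 8.69 CPM in Bell-B, and it was lower on the lingual side, with log2 fold changes of -1.92 ± 0.14 (SE, adjusted p = 2.04e-09, edgeR) and -2.29 ± 0.12 (adjusted p = 1.8e-19). In culture Rxfp1 rose to 6.29 CPM in Cap-L+2D and 23.5 CPM in Cap-B+2D. At the cap stage 2 of the 3 genes of this list that passed the filter were called buccal, Rxfp1 and Rxfp3, and 0 lingual. At the bell stage Rxfp1 was called buccal and Insl6 lingual (0.56 ± 0.21, adjusted p = 0.0326), a call that was lost with DESeq2, with all 24 libraries in 1 fit and without Bell-L replicate 1, Bell-B replicate 2 or Bell-B replicate 3. Rxfp3 and Insl6 lie outside the naming rule and were named after their values were seen.

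Npr3, which binds Ostn, was 41.0 CPM in Cap-L and 60.6 CPM in Cap-B, and 63.4 CPM in Bell-L and 22.7 CPM in Bell-B. It was thus lower on the lingual side of the cap stage (-0.59 ± 0.05, adjusted p = 5.57e-08, edgeR) and higher there at the bell stage (1.49 ± 0.05, adjusted p = 1.52e-27). The guanylyl cyclase receptors Npr1 and Npr2 were present in every group, at means from 2.52 to 17.8 CPM and from 72.4 to 189 CPM, and the ligand gene Nppc was at most 2.98 CPM. Of the natriuretic peptide list, 2 of 9 genes tested were called lingual (Npr1 and Prkg2) and 3 buccal (Npr3, Corin and Pde5a) at the cap stage, and 1 lingual (Npr3) and 1 buccal (Corin) at the bell stage. Prkg2 and Pde5a were named after their values were seen. Corin, a protease that processes natriuretic peptides, was the gene of this list called buccal at both stages (-3.15 ± 0.07 at the cap stage, adjusted p = 9.32e-17, edgeR).

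Around Agt, the receptor gene Agtr2 had means from 11.9 CPM in Cap-W to 224 CPM in Bell-L, and Agtr1a from 1.85 to 9.28 CPM. Agtr1a was lower on the lingual side of the cap stage (-0.78 ± 0.13, adjusted p = 8.07e-05, edgeR) and of the bell stage (-1.71 ± 0.11, adjusted p = 2.46e-17). Agtr1b was under 1 CPM in every group. Ren1, whose product cleaves angiotensinogen, had means up to 0.900 CPM in Cap-L, and Ace, which makes angiotensin II, had 0.864 CPM in Cap-L and 5.35 CPM in Bell-L. The peptidase genes Enpep (1.80 ± 0.06 at the cap stage, adjusted p = 3.71e-14, edgeR) and Mme were called lingual at both stages, and the mast cell chymase gene Cma1 buccal (-2.56 ± 0.28, adjusted p = 4.53e-07). Mme and Mas1 were named after their values were seen. At the cap stage 3 of the 15 renin-angiotensin genes tested were called lingual (Ren1, Enpep and Mme) and 4 buccal (Agtr1a, Agtr2, Cma1 and Mas1). At the bell stage 4 of 16 were called lingual (Ace, Agtr1b, Enpep and Mme) and 2 buccal (Agtr1a and Cma1).

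Of the other nuclear receptors, 6 of 33 tested were called lingual and 9 buccal at the cap stage, with a median log2 fold change of 0.003 beside 0.006 over all genes. At the bell stage 6 of 33 were called lingual and 4 buccal, with a median of 0.023 beside 0. Rorb was called lingual at both stages (2.7 ± 0.15 at the cap stage, adjusted p = 5.92e-11, edgeR), and Nr2f1 (-3.33 ± 0.06, adjusted p = 5.14e-18) and Rxrg (-2.15 ± 0.22, adjusted p = 2.86e-07) were called buccal at both. Nr5a1, the close relative of Nr5a2, was at most 0.190 CPM in any group mean, and of the receptors Nr0b1 and Nr0b2, which bind NR5A proteins, Nr0b1 reached 0.828 CPM in Cap-L+2D and Nr0b2 0.0740 CPM in Bell-L. Of 15 genes listed as targets of Nr5a2 in other tissues, 7 passed the filter. At the cap stage 0 were called lingual and 2 buccal, Cyp19a1 and Ccnd1, and at the bell stage 1 lingual, Abcg5, and 3 buccal, Cyp11a1, Ccne1 and Ccnd1. Ccnd1, which encodes cyclin D1, was lower in the lingual part at both stages (-0.87 ± 0.04 at the cap stage, adjusted p = 1.17e-11, edgeR). These targets except Ccnd1 were named after their values were seen.

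Of the other tetraspanins, 4 of 26 tested were called lingual (Tspan7, Tspan13, Tspan15 and Tspan17) and 4 buccal (Tspan5, Tspan9, Tspan11 and Tspan33) at the cap stage, where 2 in place of 4 were called buccal with all 24 libraries in 1 fit. At the bell stage 3 of 26 were called lingual (Tspan13, Tspan17 and Cd9) and 3 buccal (Tspan12, Tspan32 and Tspan33). Tspan13 (0.93 ± 0.05 at the cap stage, adjusted p = 9.11e-11, edgeR) and Tspan17 (0.78 ± 0.17, adjusted p = 0.000954) were called lingual at both stages, and Tspan33 buccal (-0.56 ± 0.18, adjusted p = 0.017). After culture 14 of 28 were called lingual and 4 buccal (Tspan12, Tspan33, Cd82 and Upk1a), beside 12.5% of all genes on each side. Their median log2 fold change was 0.564 beside -0.001 over all genes. In the same comparison 8 of the 10 epithelium markers were called lingual and 1 buccal, with a median log2 fold change of 3.77, and their part in the tetraspanin values was not tested. The tetraspanins other than Tspan13, Tspan17 and Tspan33 were named after their values were seen.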

How the data were processed

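RNA was measured in 24 libraries of mouse dental mesenchyme, in 8 groups of 3 assigned from the labels. The authors deposited unnormalized counts, as read pairs assigned to each of 56748 genes. Per the file header, they counted over exons with featureCounts of Subread 2.0.0 against the Ensembl annotation of GRCm39, without regard to strand. Pairs that mapped to several places or genes were left out, so genes with near-identical copies are undercounted. The sources name different library kits and aligners, and the alignment was not repeated. No protein sequences were analysed here.

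Gene symbols came from the GENCODE M39 annotation. Counts were fitted in R 4.3.3 with edgeR 4.0.16 (TMM, filterByExpr, quasi-likelihood test, Benjamini-Hochberg adjustment over all genes tested), with calls made at adjusted p below 0.05 plus a log2 change beyond 0.5 in either direction. Undivided libraries, and the parts of each stage, were fitted in 6 libraries each, and the 3 groups of each part in 9. DESeq2 1.42.0, RLE normalization, no filter, a single fit of all 24 libraries, a block for the replicate number and each library left out in turn were the alternatives. The steps were tested on simulated counts. Count ratios have exact 95% intervals that cover counting error only. An exact permutation test of 3 libraries against 3 cannot go below p = 0.1 two-sided, so none was used.

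The members, the gene lists and the tests were chosen with earlier results of these data known. Named genes were the 7 members, their direct partners, up to 3 genes per pathway list with the largest difference between the parts called at both stages on 1 side and at least 1 CPM in 1 group, and the 3 genes most like each member. Some genes that these rules name are not reported here.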

Additional observations from a re-analysis of the deposited data

Results flagged for a closer look

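From cap to bell, Nr5a2 and Trank1 moved in opposite directions in the parts, with no overlap between the stages in either part. The share of all genes that did so was not counted, and the libraries of both parts had entered the choice. Nr5a2 had a lingual log2 fold change of -1.78 and a buccal one of 0.40, which was not called. It also fell in the undivided mesenchyme, with -3.49, opposite to the 0.40 of the buccal part. Trank1 had a lingual value of 1.02 and a buccal value of -1.17. The differences between the parts were not tested, since the contrast of the parts chose these genes.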

How the results depend on the processing

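Over RLE normalization, DESeq2, no low-count filter, all 24 libraries in 1 fit and the replicate block, the number of members called stayed within 1.5 times in the 5 stage and culture comparisons, except in the buccal part between the stages. In the undivided mesenchyme the number called higher was 3 in place of 1 with all 24 libraries in 1 fit, while 3 were lower in both. In the buccal part between the stages it was 1 in place of 2 with all 24 libraries in 1 fit, where Trank1 was -1.16 (adjusted p = 0.179, edgeR). With libraries left out in turn it ran from 4 to 5 in the undivided mesenchyme, from 2 to 3 in the buccal part between the stages and from 6 to 7 in the buccal part in culture. The direction turned for 3 values: Trank1 in the undivided mesenchyme (-0.31 with the replicate block and -1.25 to 0.70 with libraries left out), Ostn between the stages in the buccal part (-0.364 to 0.079) and AI593442 between the parts at the cap stage (-0.415 to 0.079). Rxfp2 in buccal culture was called without the filter (-0.64, adjusted p = 0.036) and without Cap-B replicate 1 (-0.94, adjusted p = 0.0135), Cap-B+2D replicate 3 (-0.80, adjusted p = 0.0416) or Bell-B replicate 2 (-0.68, adjusted p = 0.0341). AI593442 between the stages in the buccal part was called without Cap-B replicate 2 (-1.10, adjusted p = 0.0351) or Bell-B replicate 2 (-1.34, adjusted p = 0.0157). Of the 21 genes most like the members, 11 were shared with a ranking on the 8 group means. The causes were not tested. Same-numbered libraries were not treated as pairs in the main fits. In no comparison did the deviations of all 3 pairs correlate over 0.1. The stage comparison in the undivided mesenchyme came close, with 0.109, 0.0952 and 0.132. With 3 pairs per comparison this cannot exclude that same-numbered libraries are paired. The replicate block changed no member count. Single libraries had few or no counts for Agt in the cap groups before culture, and for Ostn and AI593442 in Cap-W. This limits their values there.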
